A study of Mus musculus with 6 samples.

Results

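The HOX genes encode homeodomain transcription factors that give cells along the head to tail axis their position. Of the 39 mouse HOX genes in the RefSeq table, 33 had a probe set that the platform annotation names with a single gene symbol, and these 33 of the 18193 named genes are described here. They were chosen by symbol alone and are covered by 48 probe sets. RNA was measured on Affymetrix arrays in 2 lines of mouse embryonic stem cells at days 0, 4 and 7, with 1 array for each line and day. All cells, the day 0 cells included, are knockouts for Dnmt1, Dnmt3a and Dnmt3b, the DNA methyltransferase genes, and express a DNMT1 protein ubiquitously. In the full-length line this is the complete DNMT1, and in the deletion line it lacks the N-terminal 602 amino acids. Day 0 cells grew in 10% FBS with LIF, the cytokine that keeps stem cells undifferentiated. Day 4 cells had been embryoid bodies for 1 day and an adherent culture for 3 days, without LIF. Day 7 cells had then had Activin A at 10 ng/ml in 10% KSR medium for 3 days, a treatment by which the submitters sought to obtain primitive streak.

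Mammalian HOX genes lie in 4 clusters, A to D, in which genes at the same place, numbered 1 to 13, are paralogues. In the embryo the low-numbered genes are switched on first and in the more anterior tissues, and the high-numbered genes follow in posterior and tail tissues. In pluripotent stem cells the clusters are covered by Polycomb proteins and carry histone marks of both repression and activation. Wnt, FGF and retinoic acid signals, with the CDX factors, open them during formation of the posterior body.

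Levels are log2 MAS5 signals. They are set against a floor of 5.37, which is a percentile of each array's signals and not a measured background, and values below it have no order. Probe sets differ in how well they bind, so genes are read against the floor and not ranked by level. Every group was 1 array, so no value has an SD, and the labels do not say whether the 2 lines are single clones. The effect of the DNMT1 form and that of the line cannot be told apart, and the number of arrays limits the precision. One source label conflicts with its title: the deletion array of day 0 is described there as differentiated cells, and the title was followed. Stem cell markers were high on all arrays, with Pou5f1 between 13.21 and 14.02, and all 8 such markers were above the floor throughout. The arrays held 13081 to 13448 genes at or above the floor.

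No HOX gene reached 2 times the floor, a level of 6.37, on all 6 arrays, against 54.1% of all genes. Of the 33 genes, 14 count as measured, since their mean signal reached the floor (42.4%), against 73.0% of all genes. Another 14 HOX genes were below the floor on every array (42.4%, against 15.9% of all genes). At 2 times the floor or more on at least 1 array stood 9 HOX genes (27.3%), against 69.2% of all genes. None of the 198 values was above 7.62.

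**Figure D1:**
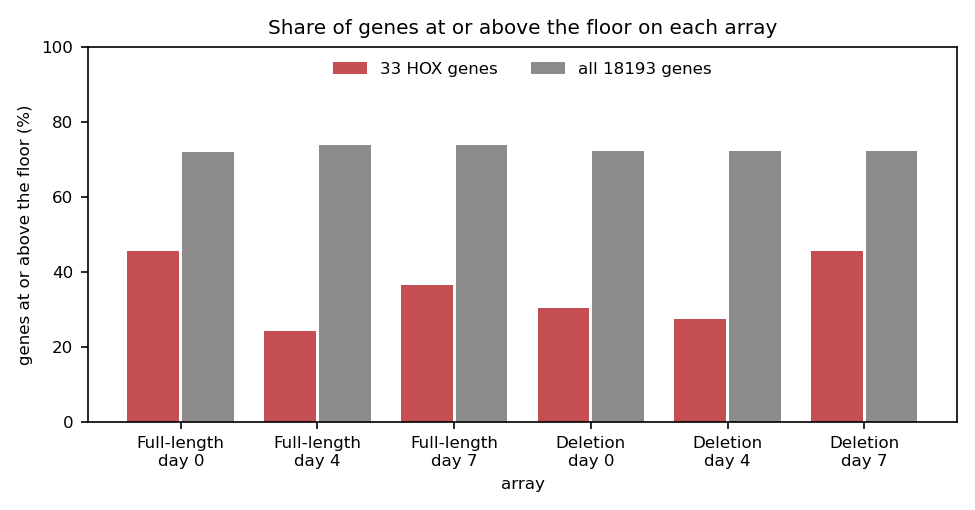
Percent of genes at or above the floor on each of the 6 arrays, for the 33 HOX genes (red) and all 18193 named genes (grey). The HOX share lies between 24.2% and 45.5% and the share of all genes between 71.9% and 73.9%.

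On the full-length arrays 15, 8 and 12 HOX genes were at or above the floor at days 0, 4 and 7. On the deletion arrays there were 10, 9 and 15. The day 4 arrays thus had the fewest in both lines, and the 2 arrays with the most were the full-length line at day 0 and the deletion line at day 7. The median HOX level was between 4.59 and 5.10 on the 6 arrays, below the floor on each.

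**Figure D2:**
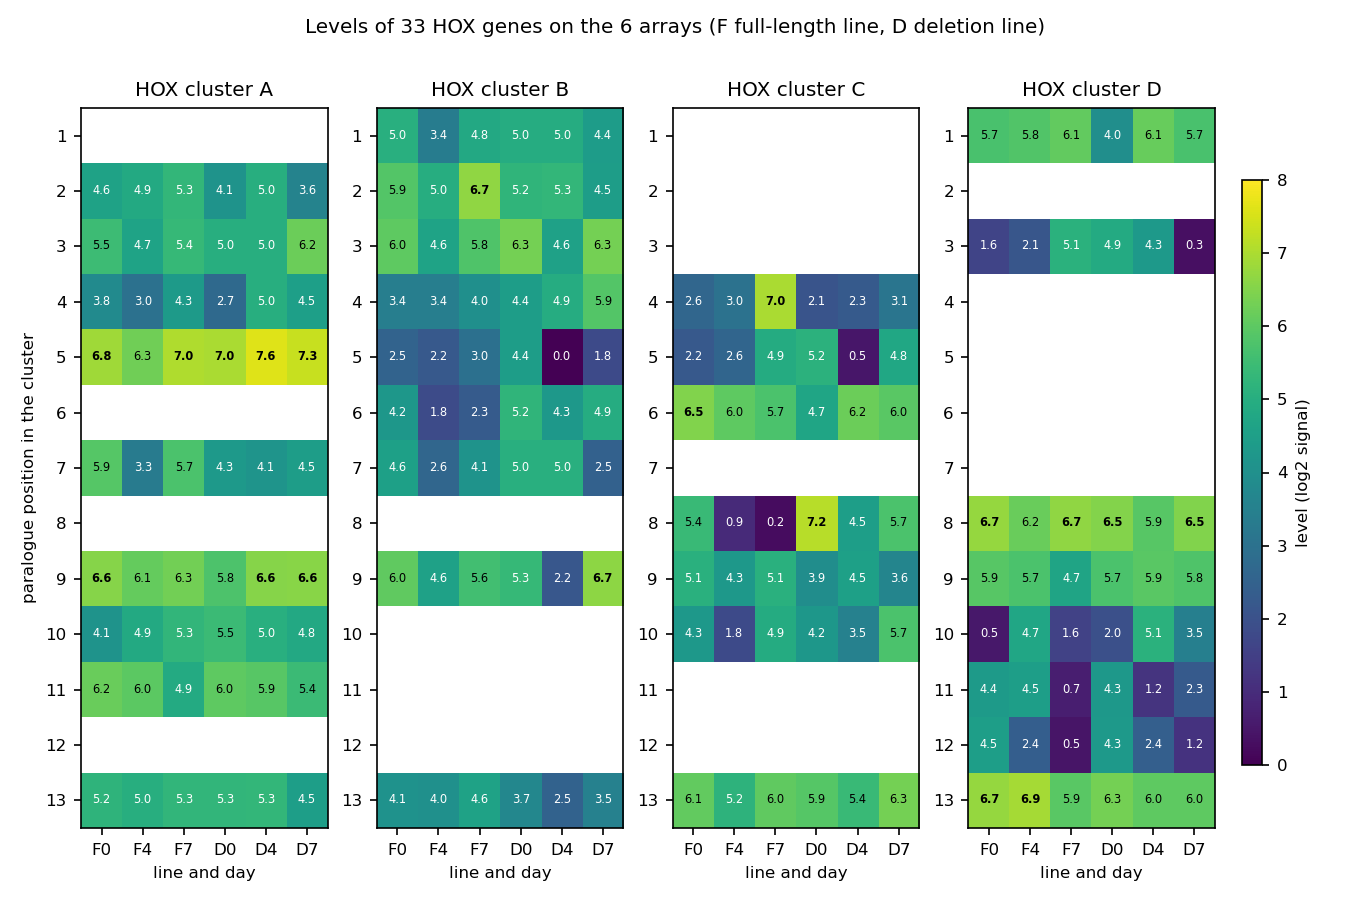
Levels (log2 MAS5 signal) of the 33 HOX genes by cluster and position, with columns for the full-length line (F) and the deletion line (D) at days 0, 4 and 7. White rows are positions with no gene or no single-symbol probe set, white digits mark values below the floor of 5.37 and bold digits values at or above 6.37; no row is bold on all 6 arrays.

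In cluster A, 4 of 9 genes were measured. They were Hoxa3, a gene of pharyngeal arch and neck patterning, Hoxa5, which acts in the cervical and upper thoracic region and the lung, Hoxa9, a posterior gene also known from blood progenitors, and Hoxa11, a gene of limb and uterus development. Hoxa2 (highest level 5.31), Hoxa4 (5.0 at the chosen probe set) and Hoxa13 (5.31) were below the floor on all 6 arrays. Hoxa7 passed the floor on the full-length arrays of day 0 (5.88) and day 7 (5.73), and Hoxa10 reached 5.46 in the deletion line at day 0. Every other value of these 5 genes was below the floor.

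In cluster B, 3 of 9 genes were measured, namely the hindbrain genes Hoxb2 and Hoxb3 and the thoracic gene Hoxb9. On both day 4 arrays 0 of the 9 genes were at or above the floor, against 3 and 1 at day 0 and 3 and 3 at day 7. Hoxb1, the hindbrain gene with a known retinoic acid response, lay between 3.35 and 5.04. Hoxb5, Hoxb6, Hoxb7 and Hoxb13 were also below the floor on every array, and Hoxb4 passed it once, at 5.87 in the deletion line at day 7.

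In cluster C, which has no genes at the first positions, 3 of 7 genes were measured: Hoxc6 and Hoxc8 of the thoracic region and Hoxc13, a gene of hair and nail. Hoxc5 and Hoxc9 were below the floor on all arrays. Hoxc10 passed it once, at 5.72 in the deletion line at day 7. Hoxc4 was not measured by its mean, but it reached 6.37 on 1 array and is given below.

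In cluster D, 4 of 8 genes were measured, from Hoxd1 at the anterior end through Hoxd8 and Hoxd9 to Hoxd13, a gene of digits and the genital tubercle. Hoxd3, Hoxd10, Hoxd11 and Hoxd12 were below the floor on all arrays. By position, 4 of 7 genes at positions 1 to 3, 4 of 12 at positions 4 to 8 and 6 of 14 at positions 9 to 13 were measured. Measured and unmeasured genes were thus found in every cluster and in every stretch of positions.

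Of the 9 genes that reached 6.37, Hoxa5, Hoxa9, Hoxd8 and Hoxd13 were at or above the floor on all 6 arrays. They were the only 4 of the 33 HOX genes that were, against 62.4% of all genes. Hoxa5 read 6.85, 6.26 and 7.05 on the full-length arrays of days 0, 4 and 7 and 6.99, 7.62 and 7.33 on the deletion arrays, and later sentences keep the same order of days. The deletion line was the higher one at each day. These values come from a probe set whose name ends in x_at, which marks probes that may also match other sequences, and the second Hoxa5 probe set ran from 2.33 to 5.59, with 1 of 6 values above the floor.

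Hoxa9 read 6.56, 6.10 and 6.30 on the full-length arrays and 5.76, 6.56 and 6.59 on the deletion arrays. The lines overlapped, and the lowest value was that of the deletion line at day 0. The second Hoxa9 probe set ran from 4.75 to 5.65. Hoxd8, a gene of the trunk, read 6.73, 6.18 and 6.66 on the full-length arrays and 6.51, 5.91 and 6.49 on the deletion arrays. Day 4 was lowest in both lines, and the lines' ranges overlapped. A second Hoxd8 probe set gave 6.13, 5.57, 5.73 and 5.93, 5.54, 5.12, lowest at day 4 in the full-length line and at day 7 in the deletion line.

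Hoxd13 read 6.74, 6.92 and 5.94 on the full-length arrays and 6.32, 6.0 and 6.01 on the deletion arrays. Only the full-length arrays of days 0 and 4 reached 6.37. Its second probe set was below the floor on every array, with a highest value of 4.42.

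The other 5 genes were at 6.37 or more on 1 array each. Hoxb2 read 5.86, 4.99 and 6.67 on the full-length arrays and 5.24, 5.29 and 4.45 on the deletion arrays, so the full-length day 7 array stood above the rest. Hoxb9 read 6.05, 4.59 and 5.59 on the full-length arrays and 5.35, 2.16 and 6.65 on the deletion arrays. Its highest value was that of the deletion line at day 7, and both day 4 values were below the floor.

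Hoxc4, a gene of the cervical region, read 2.65, 3.03 and 6.98 on the full-length arrays and 2.08, 2.28 and 3.11 on the deletion arrays. The full-length day 7 array alone was above the floor. Hoxc6 read 6.47, 6.02 and 5.72 on the full-length arrays and 4.69, 6.21 and 5.96 on the deletion arrays. The deletion line at day 0 was the 1 array below the floor. Another Hoxc6 probe set went the other way, with 6.21 on that array and between 2.13 and 2.94 on the others.

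Hoxc8 read 5.41, 0.94 and 0.25 on the full-length arrays and 7.15, 4.48 and 5.73 on the deletion arrays. Its highest value was that of the deletion line at day 0. Both full-length values after day 0 and the day 4 value of the deletion line were below the floor.

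**Figure D3:**
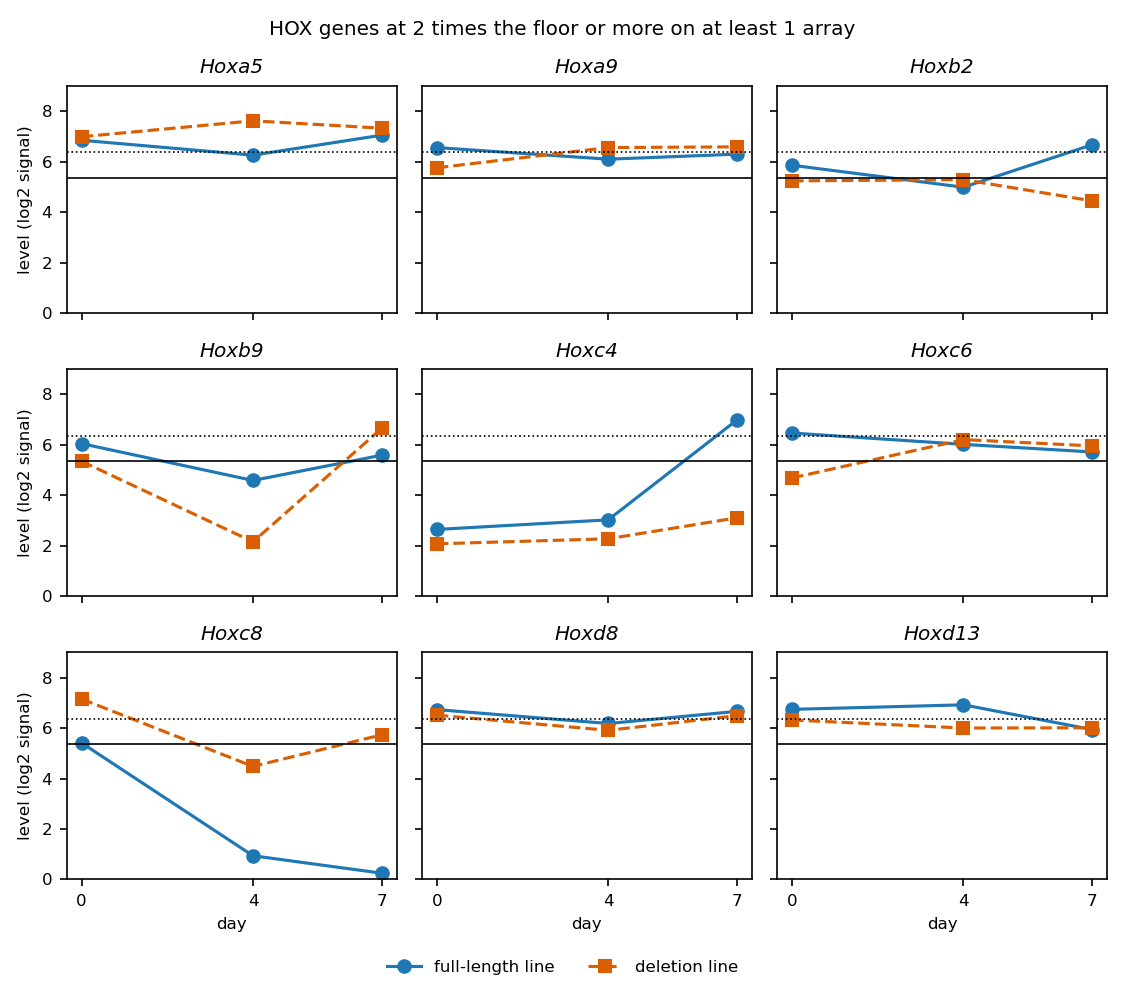
Level (log2 MAS5 signal) against day for the 9 HOX genes that reached 6.37 on at least 1 array, in the full-length line (circles) and the deletion line (squares), 1 array per point; the solid line is the floor of 5.37 and the dotted line 6.37. Hoxa5, Hoxa9, Hoxd8 and Hoxd13 stay above the floor, and the other 5 genes fall below it on at least 1 array.

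DNMT1 copies methylation at CG dinucleotides, so the stretches before annotated starts of 3 of these genes, each from a different cluster, are shown to let their CG content be seen. Sequences are from RefSeq with build GRCm38.p6, the 250 bases before the start, 5′ to 3′ on the gene's strand, with each CG in capitals. The genes were picked after their readings were seen, and methylation was not measured.
Hoxa5, chr6:52204588-52204837, minus strand: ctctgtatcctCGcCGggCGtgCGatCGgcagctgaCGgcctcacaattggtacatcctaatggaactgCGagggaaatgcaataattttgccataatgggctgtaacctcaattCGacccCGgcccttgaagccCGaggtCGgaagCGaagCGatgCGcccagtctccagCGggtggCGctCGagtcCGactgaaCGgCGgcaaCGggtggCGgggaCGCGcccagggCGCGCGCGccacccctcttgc
Hoxc4, chr15:103034145-103034394, plus strand: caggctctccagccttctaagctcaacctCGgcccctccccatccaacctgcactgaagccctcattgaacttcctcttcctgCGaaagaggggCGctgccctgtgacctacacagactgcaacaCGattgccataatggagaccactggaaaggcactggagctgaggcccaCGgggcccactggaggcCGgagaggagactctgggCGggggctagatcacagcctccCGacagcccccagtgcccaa
Hoxd8, chr2:74704365-74704614, plus strand: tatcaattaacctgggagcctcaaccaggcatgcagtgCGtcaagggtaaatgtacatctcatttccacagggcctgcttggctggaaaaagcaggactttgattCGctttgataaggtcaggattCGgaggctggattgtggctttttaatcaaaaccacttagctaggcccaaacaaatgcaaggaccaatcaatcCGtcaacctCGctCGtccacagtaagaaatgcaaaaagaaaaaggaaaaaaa
Hoxa5 held 28 CG dinucleotides in this stretch, Hoxc4 8 and Hoxd8 6. The table held 21 such stretches for 19 of the 33 genes, with 2 to 35 CG and a median of 13, against a median of 6 over all 32851 stretches. The letters CG, which read the same on both strands, were present in all 21 and in 92.1% of all stretches. TATAAA, on either strand, was found in 2 of the 21 (9.52%) and in 12.4% of all. TTTATG, a core of CDX sites, was found on either strand in 3 of the 21 (14.3%), those of Hoxa7, Hoxd3 and a Hoxd11 start, and in 10.8% of all.

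Changes with time were first read within each line, 1 array against 1, without a test. Called here means that the arrays differ at least 2-fold and that one reads 6.37 or more, among the 14 measured HOX genes and the 13277 measured genes. A difference from a value at the floor is a lower bound. Hoxb2, Hoxb9 and Hoxc8 count as measured only through the 1 array on which each reached 6.37. All calls of these genes rest on that array. From day 0 to day 4, without LIF, 0 HOX genes were called in the full-length line (13.2% of all genes) and 1 in the deletion line (10.3% of all), Hoxc8, at least 3.45-fold lower. From day 4 to day 7, with Activin A, Hoxb2 was at least 2.47-fold higher in the full-length line (8.34% of all genes called). Over the same days Hoxb9 was at least 2.44-fold higher in the deletion line (10.7% of all).

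From day 0 to day 7, 0 measured HOX genes were called in the full-length line (14.2% of all genes). In the deletion line Hoxb9 was at least 2.44-fold higher and Hoxc8 2.68-fold lower (11.0% of all). Hoxc4, outside the measured genes, was at least 3.06-fold higher in the full-length line at day 7 than at day 4 and at day 0. In none of the 3 time comparisons was the same HOX gene called in both lines in 1 direction. Few HOX genes were called in either line, and the share of all genes called in both was not counted. Nothing is therefore read from this about the HOX genes.

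Over both lines together, the question was whether any HOX gene changed with time beyond the spread that remains between arrays. In limma, with line and day as factors, 0 of 14 HOX genes were called in day 4 over day 0 (1.58% of all genes), 0 in day 7 over day 4 (0.0151%) and 0 in day 7 over day 0 (1.03%). None had an unadjusted limma p under 0.05 in any of them, against 2157, 1582 and 2296 of the 13277 measured genes. Some did under other settings, with 3, 4 and 1 of 14 HOX genes without the variance trend. With the floor at the 25th percentile there were 2, 2 and 1 of 23, and without the filter on dim genes 3, 4 and 1 of 33. For these settings the matching shares of all genes were not counted. The shares of all genes rest on few arrays. With 1 array left out, the 210 genes called in day 4 over day 0 became 0 to 261 and the 137 in day 7 over day 0 became 0 to 35, in both cases 0 without the full-length day 0 array. Without the day 0 deletion array they were 5 and 3, without the full-length and deletion day 4 arrays 7 and 16 in the first comparison and 16 and 10 in the second, and without the variance trend 16 and 3. The residual reflects disagreement of both lines over a time change, and its median SD was 0.36 for the HOX genes and 0.24 for all genes.

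Day 4 over day 0, the log2 differences ran from -0.91 to 0.45, with a median of -0.11 against 0.04 over all genes. Hoxb3 had the lowest p, with a log2 difference of -0.80 (SE 0.35, limma adjusted p = 0.32). It read 6.01, 4.64 and 5.80 on the full-length arrays and 6.33, 4.59 and 6.33 on the deletion arrays, below the floor at day 4 in both, where the fit used the floor. A second Hoxb3 probe set was below the floor on every array, between 2.75 and 4.67. Day 7 over day 4, the differences ran from -0.54 to 0.78, with a median of 0.22 against 0 over all genes, and Hoxc13 had the lowest p (log2 0.78, SE 0.35, limma adjusted p = 0.45). Hoxc13 readings were 6.07, 5.17 and 6.04 on the full-length arrays and 5.88, 5.43 and 6.32 on the deletion arrays, lowest at day 4 in both. Both comparisons share the day 4 arrays.

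Day 7 over day 0, the differences ran from -0.73 to 0.41, with a median of 0.08 against 0.06 over all genes. Hoxa11 had the lowest p (log2 -0.69, SE 0.34, limma adjusted p = 0.35), with levels of 6.17, 5.97 and 4.88 on the full-length arrays and 6.02, 5.91 and 5.44 on the deletion arrays. Both lines had their lowest Hoxa11 value at day 7. Hoxd1 was at 5.70, 5.82 and 6.09 on the full-length arrays and 3.95, 6.14 and 5.69 on the deletion arrays (day 4 over day 0 log2 0.45, SE 0.37, limma adjusted p = 0.62). Hoxd9 lay between 4.66 and 5.94, and Hoxa3 between 4.65 and 6.20, with its highest value in the deletion line at day 7. The other Hoxa3 probe sets read 0.57, 2.24 and 3.78 on that array, and the log2 mean signal of the chosen one was 5.37, at the floor.

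**Figure D4:**
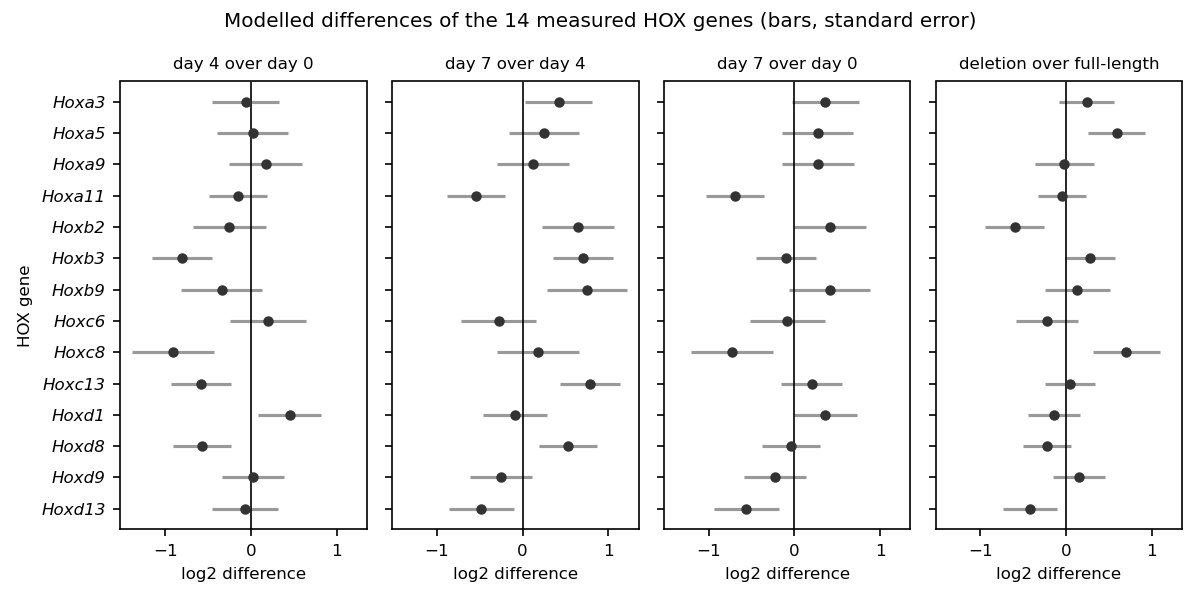
Log2 differences from limma, with standard errors as bars, for the 14 measured HOX genes in day 4 over day 0, day 7 over day 4, day 7 over day 0 and deletion over full-length line. All points lie between -0.91 and 0.78, and none has an adjusted p below 0.32.

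The lines were compared to see whether HOX levels differed with the DNMT1 form. In limma 0 of 14 HOX genes were called in the line difference, as were 0% of all genes. An unadjusted limma p under 0.05 was found for 0 HOX genes and 1624 of all genes. With the floor at the 25th percentile 1 of 23 HOX genes had one, and without the filter on dim genes 1 of 33. The differences ran from -0.60 for Hoxb2 to 0.70 for Hoxc8 (SE 0.39, limma adjusted p = 0.50), with a median of 0.02 against -0.06 over all genes. Hoxa5, higher in the deletion line at each of the 3 days, had a log2 difference of 0.59 (SE 0.33, limma adjusted p = 0.50), at its brighter probe set only. The other probe set was above the floor on the full-length day 7 array alone (5.59, against 4.02 in the deletion line).

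Array against array, Hoxc8 was 3.34-fold higher and Hoxc6 at least 2.15-fold lower in the deletion line at day 0 (5.97% of all genes called). With all Hoxc6 probe sets averaged its log2 difference of -1.10 became -0.11. At day 4 Hoxa5 was 2.57-fold higher in the deletion line (5.97% of all genes), and its log2 difference of 1.36 became 0.68 with its probe sets averaged. At day 7 Hoxb9 was 2.08-fold higher and Hoxb2 at least 2.47-fold lower in the deletion line (12.9% of all), and Hoxc4, outside the measured genes, at least 3.06-fold lower. Over the 9 comparisons of single arrays the measured HOX genes were called in 10 of 126 cases (7.94%), and all genes in 10.3%. This order depended on the floor. With the floor at the 25th percentile, 46 of 207 HOX cases were called, a higher share than that of all genes. At the main floor most HOX cases were those of Hoxb2, Hoxb9 and Hoxc8, each measured only through the array that gave its calls.

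Fibroblasts of the trunk express HOX genes, and markers of these cells are set here beside Hoxc8, 1 of the 14 measured HOX genes. The log2 of the summed signal of 18 fibroblast markers was 13.14, 10.86 and 11.24 on the full-length arrays and 14.26, 10.90 and 11.93 on the deletion arrays. At day 0, 17 of the 18 were higher in the deletion line, with a median log2 difference of 1.13. The array with the highest Hoxc8 level therefore also had the highest marker sum. The order did not hold throughout, since Hoxc8 was higher in the deletion line at day 7 (5.73) than in the full-length line at day 0 (5.41). Of the other measured HOX genes, Hoxb3 had its highest value, 6.33, on the deletion array of day 0, and again on that of day 7. Hoxa9 (5.76), Hoxc6 (4.69) and Hoxd1 (3.95) had their lowest values on the deletion array of day 0. In limma 9 of the 18 fell from day 0 to day 4 and 6 were lower at day 7 than at day 0, with 0 called higher and medians of -2.56 and -2.17. The largest day 7 over day 0 differences were those of the calcium-binding protein gene S100a4 (log2 -3.42), the matrix genes Tnc (-3.26) and Bgn (-3.13), which were called, and Postn (-3.20, limma adjusted p = 0.075), also a matrix gene. With 1 array left out, Tnc was called in no fit of day 7 over day 0, and S100a4 and Bgn only in some. S100a4 read 9.54, 5.64 and 5.77 on the full-length arrays and 10.60, 6.55 and 7.53 on the deletion arrays, highest at day 0 in both. Without either day 0 array 0 of the 18 were called in both comparisons. Without the full-length or deletion day 4 array 2 and 1 were called from day 0 to day 4, and without either day 7 array 9. Fewer than these held in day 7 over day 0 without either day 7 array. None of the 18 was at 0 on any array.

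**Figure D5:**
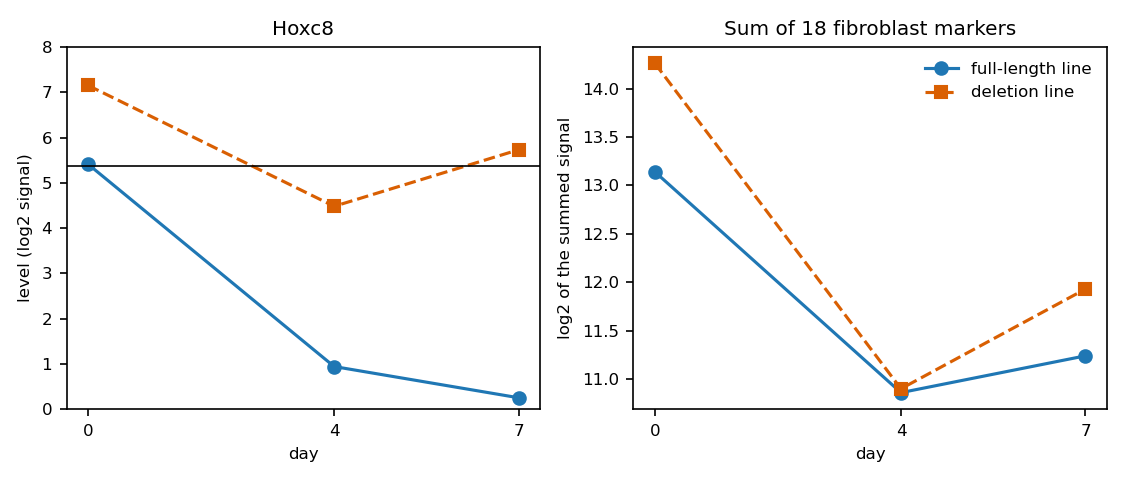
Left, Hoxc8 level (log2 MAS5 signal, floor as a line), and right, log2 of the summed signal of 18 fibroblast markers, against day in the full-length line (circles) and the deletion line (squares), 1 array per point; the right axis does not start at 0. The deletion line at day 0 is highest in both panels, at 7.15 and 14.26.

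Macrophage markers, 8 in all, had log2 sums of 11.45, 9.34 and 10.62 on the full-length arrays and 13.46, 9.41 and 10.22 on the deletion arrays, also highest in the deletion line at day 0. Ptprc, which encodes the common antigen of blood cells, had a mean below the floor. Of the 7 measured markers 5 were higher in the deletion line at day 0, and Cd68 (9.30 and 8.77 in the full-length and deletion lines) and Spi1 (6.30 and 5.82) were lower. Lyz1 and Lyz2, the lysozyme genes, fell from day 0 to day 4 and were lower at day 7 than at day 0, and Lyz1 was listed at 0 in the deletion line at day 4. The other 5 were not called, and Csf1r and Cd68 had log2 differences of 1.15 and 0.54, day 7 over day 0 (limma adjusted p = 0.31 and 0.50). Without either day 0 array no macrophage marker was called in these comparisons. The calls of Lyz1 and Lyz2 were lost in most fits with 1 array left out. That of Lyz2 in day 7 over day 0 was lost in all. The part of either cell type in the Hoxc8 values was not tested, and in such bulk samples fewer cells of a type and less RNA per cell cannot be told apart.

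Markers of other tissues were read as well. Of 10 mesoderm markers 7 were measured and of 7 neuroectoderm markers 4, with 0 called in any limma comparison of all 6 arrays. Neurog2 and Olig2 were below the floor on all arrays. The sums of the mesoderm markers lay between 9.61 and 10.07. Eomes had the largest day 4 over day 0 difference of the measured ones (log2 1.94, SE 0.45, limma adjusted p = 0.088), against a median of 0.19. It read 6.96, 8.95 and 7.23 on the full-length arrays and 6.15, 8.03 and 7.92 on the deletion arrays. Of 11 extraembryonic markers 4 rose from day 0 to day 4 and were higher at day 7 than at day 0, namely Afp and Ttr, serum protein genes of visceral endoderm, and the keratin genes Krt8 and Krt18. With 1 array left out, Krt18 was called in 5 of 6 fits of each comparison, Krt8 in 4 of 6, Afp in 2 and 1 and Ttr in 2 and 0. Of the 8 stem cell markers Esrrb and Klf4 fell from day 0 to day 4, and Klf4 was also lower at day 7 than at day 0. Klf4 was called in 5 and 3 of the 6 fits with 1 array left out, and Esrrb in 0.

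Genes that act upstream of HOX genes or beside them were taken from lists. The CDX factors, which switch on the central HOX genes, were low. Cdx1 and Cdx4 were below the floor on all arrays, with highest levels of 4.14 and 4.93, and Cdx2 lay between 5.23 and 5.93. Of the 8 genes of the CDX, ParaHox and Evx list 3 were measured, Cdx2, Evx1 and Evx2, and 0 were called. Their median log2 difference, day 7 over day 0, was 0.24. Evx2, the neighbour of Hoxd13, lay between 4.57 and 6.77, and Evx1, at the end of cluster A, between 4.80 and 6.42.

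Of 18 listed names of posterior signal and retinoic acid genes 16 had a single-symbol probe set, and 12 were measured. T and Tbxt, both symbols of the Brachyury gene, had none, so that gene was not read. Cyp26a1, which encodes an enzyme that degrades retinoic acid, rose from day 0 to day 4 (log2 2.41, SE 0.42, limma adjusted p = 0.041) and was higher at day 7 than at day 0 (log2 3.15, SE 0.42, limma adjusted p = 0.027). It read 3.68, 7.25 and 7.81 on the full-length arrays and 4.43, 8.30 and 9.22 on the deletion arrays, so both lines were below the floor at day 0, where the fit used the floor. With 1 array left out in turn, Cyp26a1 was called in 2 of 6 fits of day 4 over day 0, those without a day 7 array, and in 0 of 6 of day 7 over day 0 (limma adjusted p from 0.07 to 0.22). Stra8, a retinoic acid responsive gene of meiotic entry, fell from day 0 to day 4 (log2 -2.42, SE 0.34, limma adjusted p = 0.025). It read 9.13, 6.36 and 9.42 on the full-length arrays and 8.11, 6.04 and 9.37 on the deletion arrays, lowest at day 4 in both. Its call held in 2 of 6 fits with 1 array left out, again those without a day 7 array.

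The other 10 measured genes of that list were not called. Dhrs3, a retinaldehyde reductase gene, read 5.42, 7.79 and 7.95 on the full-length arrays and 5.74, 6.14 and 6.81 on the deletion arrays. Fgf8, a ligand of the streak and tail bud, read 2.55, 9.43 and 6.88 on the full-length arrays and 3.45, 4.55 and 6.37 on the deletion arrays. Rarg, a retinoic acid receptor gene, had a log2 difference of -0.90 (limma adjusted p = 0.14) at day 7 over day 0. Wnt3 and Wnt3a were below the floor on all arrays. The median log2 difference of the list, day 7 over day 0, was 0.49, against 0.06 over all genes.

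The TALE genes encode homeodomain partners that bind DNA with HOX proteins. The 8 of 9 listed genes that had a single-symbol probe set were measured and 0 were called, with a median log2 difference of 0.54, day 7 over day 0. Pbx2 and Pbx3 were between 9.26 and 10.68 on all arrays. Meis2 read 5.75, 7.25 and 8.25 on the full-length arrays and 6.38, 5.38 and 7.75 on the deletion arrays, highest at day 7 in both (log2 1.94, SE 0.56, limma adjusted p = 0.14). Meis3, Pknox2 and Pbx4 had log2 differences of 1.05, 0.88 and 0.56 between the same days.

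All 22 Polycomb and Trithorax genes, which encode the complexes that hold HOX clusters off or on, were at or above the floor on every array. In limma 0 of them were called in any comparison, and their median log2 difference was -0.08, day 7 over day 0. The differences of Ezh2, which encodes the histone methyltransferase of Polycomb, and of its partners Jarid2 and Phf19 were -0.66, -0.58 and 0.63, and that of Ezh1, the paralogue of Ezh2, was 0.46.

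Of 9 genes from just outside the clusters 8 were measured and 0 were called. Skap2 and Snx10, beside cluster A, lay between 10.03 and 10.99 and between 11.07 and 11.96, and Mtx2 and Lnpk, beside cluster D, between 10.75 and 11.12 and between 9.85 and 10.28. Skap1, beside cluster B, was not measured and passed the floor on 2 arrays, at 6.03 and 5.39. Hibadh and Smug1 had log2 differences of 0.34 and 0.40, day 7 over day 0. Of 12 noncoding RNAs of the clusters 3 were on the array under these names and 1 was measured, Hoxb5os, at 4.76, 6.20 and 4.77 on the full-length arrays and 5.88, 5.97 and 5.70 on the deletion arrays, with 0 called. Hoxa11os was below the floor on all arrays.

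Besides these, 3 probe sets carry the names of 2 HOX genes each and therefore stand for no single gene. One of the 2 shared by Hoxd3 and Hoxd4 lay at 5.70, 6.20 and 3.11 on the full-length arrays and 5.88, 5.79 and 5.82 on the deletion arrays. The other, and the probe set shared by Hoxb7 and Hoxb8, were below the floor on all 6 arrays, with highest values of 4.56 and 5.24.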

How the data were processed

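Array signals were computed by the authors with MAS5 and deposited as log2 values, per the submitters' processing notes for MAS5 and per the values for log2. The values ran from 0 to 15.68 with trimmed means of 2 to their power between 496.7 and 496.9 on the 6 arrays. For the version of MAS5, its scaling target and the log base, nothing is given in the sources used here. Detection calls were not used. Global scaling removes a shift of most genes in 1 direction. RNA carried biotin, per the labels' protocols.

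Gene symbols come from the platform annotation. For each gene the probe set of highest mean signal was taken. Signals below the floor of 41.2, the median over arrays of the 40th percentile, were set to it. Genes with a mean signal at or above it (13277 of 18193) were fitted with limma 3.58.1 in R 4.3.3 with line and day as additive factors and a variance trend. Tests were two-sided and adjusted by Benjamini-Hochberg with a threshold of 0.05, and the model left 2 residual degrees of freedom. The fit was tested on simulated data. Genes were also compared between single arrays, without a test, by a 2-fold difference where one array reached 2 times the floor. Alternatives covered the floor, scaling, quantile normalization, averaging of probe sets, the filter, the trend, the model and each array left out.

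The HOX genes, the other lists and the rules were chosen with earlier results of these data known. HOX genes at 2 times the floor or more on at least 1 array are given in full, and other gene lists by counts, medians and up to 4 genes with the largest day 7 over day 0 change, with called genes. Markers of embryonic stem cells, fibroblasts, macrophages, mesoderm, neuroectoderm and extraembryonic cells were listed as well, and those named among them, like neighbour genes of the clusters, were partly chosen after their values were seen.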

Additional observations from a re-analysis of the deposited data

Results flagged for a closer look

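In 2 measured HOX genes the lines moved in opposite directions by at least 1.5-fold each. The share of all genes past this rule was not counted, so 2 cannot be called many or few. Hoxa5 had a log2 change of -0.59 from day 0 to day 4 in the full-length line and of 0.63 in the deletion line, a difference of 1.22. Its other probe set was below the floor on all 4 of these arrays. Hoxc6 had a log2 change of -0.75 from day 0 to day 7 in the full-length line and of at least 0.59 in the deletion line, whose day 0 value was below the floor, a difference of 1.34. The other Hoxc6 probe sets did not rise in the deletion line, reading 5.97 and 5.78, and 6.21 and 2.94, at days 0 and 7. With 1 array per line and day neither difference between lines was tested.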

How the results depend on the processing

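With limma 0 HOX genes were called in each of the 4 comparisons under all settings that could be fitted, 14 in number, with a lowest adjusted p of 0.14. Without the line in the model there is no line difference. In some settings few or 0 of all genes were called, and there 0 HOX calls says little. With all 6 arrays kept, the calls among all genes ran from 0 to 319 in day 4 over day 0. They ran from 0 to 44 in day 7 over day 4, 0 to 227 in day 7 over day 0 and 0 to 3 for the line. The number of measured HOX genes, 14, became 23 with the floor at the 25th percentile and 4 with it at the 50th, and 12 to 14 with 1 array left out. The calls between single arrays, 10 of 126 HOX cases over the 9 comparisons, became 46 of 207 and 1 of 36 with the same floors. Among all genes there were 19586 calls over the 9 comparisons of 15582 measured genes with the lower floor. With the higher floor there were 9511, for 11816 genes. The HOX share was thus above that of all genes at the 25th percentile floor, and below it at the 50th and at the main floor. Counting all genes without the filter on dim genes, a setting added after the data were seen, gave 13 of 297 HOX cases. That share was also below the one of all genes (12544 calls, 18193 genes). Of 65 values of single genes under other settings, 11 were under 2-fold and 0 reversed. A moved floor cannot reverse a direction, so for the floors the 0 was fixed in advance. Averaging of probe sets could change only Hoxc6 and Hoxa5, since the other genes of this count have 1 probe set each. Both fell under 2-fold. The floor sets how many HOX genes count as measured. The line was a term of the model, so days were compared within lines; without it 18, 1 and 12 of all genes were called in day 4 over day 0, day 7 over day 4 and day 7 over day 0. The labels give no replicate numbers to block on.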

Other observations

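Values near or below the floor varied widely between arrays. The 19 unmeasured HOX genes had a median range of 2.57 log2 units over the 6 arrays, and all genes with a mean signal below the floor one of 2.97. For the 14 measured HOX genes the median range was 1.46, and for all measured genes it was 0.93.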
